A study of Mus musculus with 8 samples.

Results

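The SLC25 proteins are the carriers of the mitochondrial inner membrane, and 39 genes of this family were measured in the quadriceps muscle of mice with a head and neck carcinoma and of mice without one. Members were the gene symbols beginning with Slc25a and a digit, pseudogene symbols left out, whose counts summed to at least 80 over 8 libraries. These were 39 of the 47 such symbols in the deposited table, which lists 53819 symbols in all. Of the other 8 symbols, Slc25a31, Slc25a41 and Slc25a54 had no count, and Slc25a2, Slc25a18, Slc25a21, Slc25a43 and Slc25a48 had between 1 and 21 counts in total.

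The tumor group consisted of 4 wild-type C57BL/6J mice that received 500000 cells of B0092, a squamous cell carcinoma line of the head and neck, under the skin of the nape in 200 µL of saline. The control group consisted of 4 wild-type C57BL/6J mice that received the saline (PBS) alone. Mice were 8 weeks old at the start, and the submitters name day 36, at about 10% weight loss, as the end point, when muscle was frozen. One transplanted line served for all tumor mice, and each library came from a different mouse; libraries are called tumor 1 to 4 and control 1 to 4.

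Carriers of this family exchange nucleotides, phosphate, organic acids, amino acids and cofactors between the cytosol and the mitochondrial matrix. Their genes lie in the nucleus, and the proteins enter the inner membrane through the TIM22 complex. In muscle the ADP/ATP carrier and the phosphate carrier supply the ATP synthase with its substrates, the malate-aspartate shuttle brings in reducing equivalents from glycolysis, and the carnitine carrier admits fatty acids for oxidation.

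Library totals ran from 28436254 to 36139478 counts, and all 39 members were among the 14070 genes tested. The summed level of 6 myofibre markers (Acta1, Ckm, Myh4, Mylpf, Tnnt3, Atp2a1) was 84950 to 196600 counts per 1000000 (CPM) in tumor libraries and 122200 to 191800 CPM in control libraries, with Acta1 lower and the other 5 not called. The log2 ratio of Myh4 (the fastest fibre myosin) to Myh1, Myh2 and Myh7 summed was lowest in tumor 2 (2.03) and control 4 (0.866) of their groups. It was 4.32 to 6.51 in the other tumor libraries. Controls 1 to 3 were spread, at 2.95, 4.29 and 5.59. The 5 endothelial markers summed to 60.9 to 107 CPM in tumor and 121 to 184 CPM in control libraries, with 3 of 5 lower. The 4 satellite cell markers summed to 48.8 to 74.3 CPM in tumor and 23.4 to 26.2 CPM in control libraries, most of it Cdh15 (45.2 to 70.02 CPM in tumor, 19.9 to 22.8 CPM in control libraries), which was higher. Pax7 and Myf5, the other 2 tested, had log2 fold changes of -0.09 and -0.035 and did not pass. Of the 6 squamous markers, Krt5, Krt14, Krt6a and Dsg3 were at 0, and Trp63 was the 1 tested and was higher (summed level 15.7 to 36.2 CPM in tumor and 6.27 to 9.41 CPM in control libraries). The 5 macrophage markers summed to 19.4 to 93.3 CPM in tumor and 29.1 to 47.8 CPM in control libraries, with none called, and the 5 markers of fibro-adipogenic progenitors to 159 to 289 CPM in tumor and 254 to 333 CPM in control libraries, with 1 lower. The part of these cells in the results below was not tested.

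Of the 39 carriers, 11 (28.2%) were lower and 2 (5.13%) were higher in tumor-bearing mice with 0.05 as the threshold for p-values adjusted over all genes by Benjamini-Hochberg (quasi-likelihood test of edgeR). Among all genes tested, 8.73% were lower and 11% were higher. Upper-quartile scaling, which moved the split over all genes to 1547 lower and 1169 higher against 1229 lower and 1552 higher, left 11 carriers lower and 1 higher. The lower carriers included those for ADP/ATP and phosphate (Slc25a4, Slc25a3, Slc25a23), dicarboxylates and oxoglutarate (Slc25a10, Slc25a11), aspartate and ornithine (Slc25a12, Slc25a15), and pyrimidine nucleotides and glutathione (Slc25a36, Slc25a39), with the orphan Slc25a35. The higher carriers were the iron carrier Slc25a28 (mitoferrin-2) and the branched-chain amino acid carrier Slc25a44. The median log2 fold change was -0.33 over the 39 members and 0.00 over all genes, and 29 members were below 0. In bulk muscle, fewer cells of a type and less RNA per cell cannot be told apart.

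All 4 tumor values lay below all 4 control values in 9 members (23.1%), all of them called; Slc25a10 and Slc25a39 were called with groups that overlapped. Over all genes this held for 11.5%. All 4 tumor values lay above all 4 control values in 2 members (5.13%), Slc25a28 and Slc25a44, against 13.5% of all genes. The number of lower members changed with single mice. It fell to 3 without control 1 (all genes 3.35%), 5 without control 2 (all genes 4.28%), 6 without control 4 (all genes 6.82%), 2 without tumor 3 (all genes 3.36%) and 7 without tumor 4 (all genes 8.02%). It was 8 without tumor 1 (all genes 8.99%) and 14 without tumor 2 (all genes 10.1%). Slc25a36 and Slc25a28 passed in each of the 17 alternative fits that were run.

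**Figure D1:**
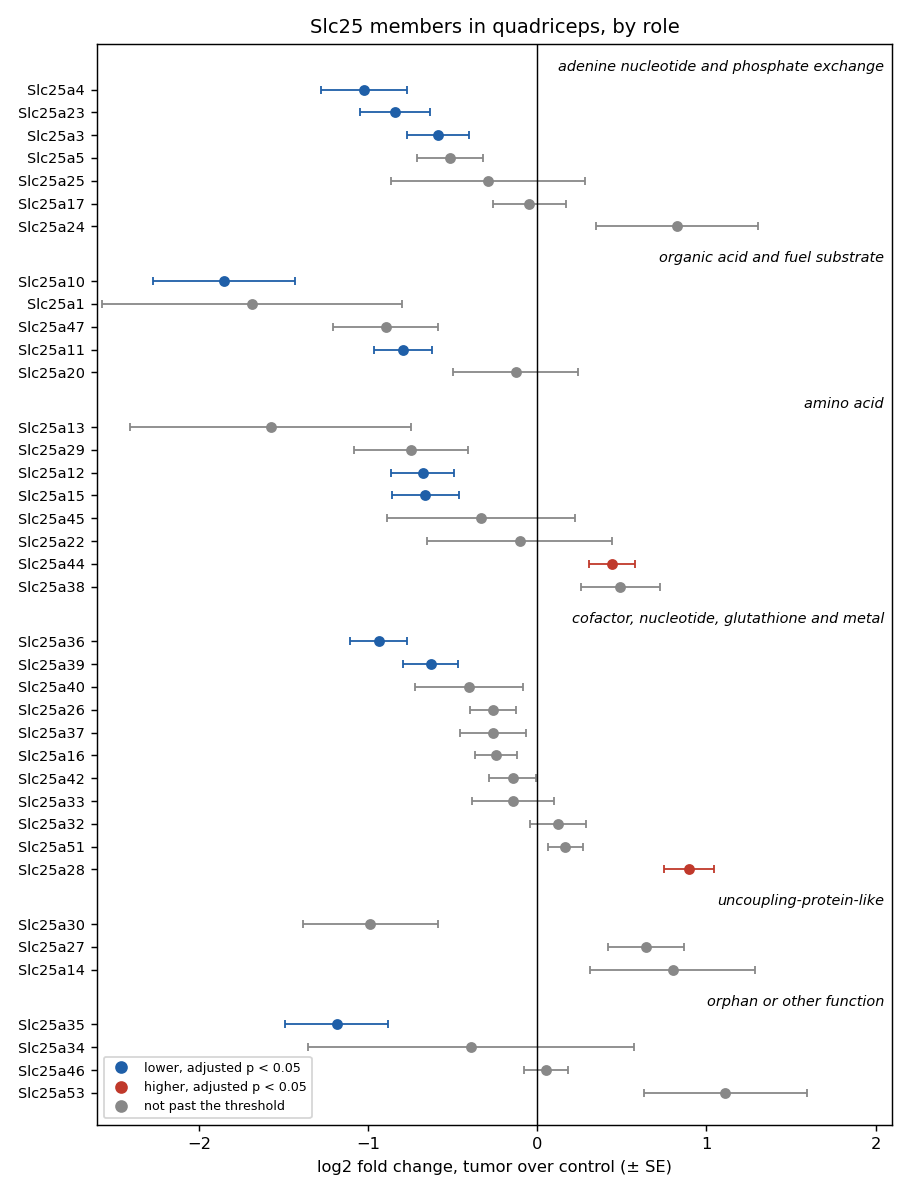
Log2 fold change (tumor over control, horizontal axis) with its standard error for 38 members, grouped by role; blue marks 10 lower, red 2 higher and grey 26 others. Slc25a10 had the lowest value of the called members (-1.85) and Slc25a28 the highest (0.90).

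Promoter windows of 3 members are shown because Slc25a4 carried most of the family's counts, Slc25a3 was the lone member with an NRF1 match, and Slc25a28 had the larger of the called rises. Each runs from 250 bases before to 50 bases after the RefSeq start (build GRCm38.p6, another build than the GRCm39 of the submitters' processing notes), 5′ to 3′ on the gene's strand. Capitals mark a GC box (GGGCGG) or, near the 5′ end of Slc25a3, the letters of the NRF1 element, read on the opposite strand. The windows are chr8:46211013-46211312 (minus strand) for Slc25a4, chr10:91123918-91124217 (minus strand) for Slc25a3 and chr19:43674832-43675131 (minus strand) for Slc25a28.
Slc25a4: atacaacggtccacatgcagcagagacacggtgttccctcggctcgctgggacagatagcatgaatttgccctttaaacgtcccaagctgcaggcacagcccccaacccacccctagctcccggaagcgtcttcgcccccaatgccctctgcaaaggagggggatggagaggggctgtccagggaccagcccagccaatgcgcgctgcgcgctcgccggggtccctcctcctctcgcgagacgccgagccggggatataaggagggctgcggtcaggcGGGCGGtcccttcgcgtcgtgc
Slc25a3: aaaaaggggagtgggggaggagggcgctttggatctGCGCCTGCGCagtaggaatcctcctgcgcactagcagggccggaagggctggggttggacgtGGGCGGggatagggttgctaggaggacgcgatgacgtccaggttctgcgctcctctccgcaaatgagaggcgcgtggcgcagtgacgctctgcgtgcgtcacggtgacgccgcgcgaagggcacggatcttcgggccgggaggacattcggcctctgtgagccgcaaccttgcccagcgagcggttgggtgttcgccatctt
Slc25a28: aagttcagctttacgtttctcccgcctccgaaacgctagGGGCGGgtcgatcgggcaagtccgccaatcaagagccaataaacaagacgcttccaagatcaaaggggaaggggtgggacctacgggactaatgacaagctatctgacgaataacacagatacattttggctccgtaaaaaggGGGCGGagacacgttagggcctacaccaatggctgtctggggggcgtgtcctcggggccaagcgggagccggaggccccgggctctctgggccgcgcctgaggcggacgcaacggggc

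RefSeq windows were found for 30 of the 39 members, 9 of them lower and 1 higher. Both strands were searched, and in the windows shown no match overlapped one of another motif. A GC box stood in the windows of 27 of 30 members (90%), among them 8 of the 9 lower ones and Slc25a28, against 38.2% of the 27025 genes with a window. Those genes were not filtered by count as the members were, so the shares given here rest on unlike gene sets. NRF1 letters stood in 1 of 30 (3.33%), against 5.19% of all. The letters of the ERR element (TNAAGGTCA, 1.43% of all genes), the FOXO element (GTAAACA, 4.05%), the glucocorticoid receptor element (0.0111%) and the TATA box (TATAAA, 15.7%) stood in none of the 30. The MEF2 search was loose, since it allowed any base at the middle positions of the element. Slc25a10 and Slc25a22 held a match to this loose pattern (4.23% of all genes), each with G among its middle bases. Neither match is taken as a MEF2 element, and the share is not a rate of such elements. Slc25a25 and Slc25a36 held the CRE (TGACGTCA, 2.03% of all genes). These matches describe the letters and say nothing of binding.

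Of 7 carriers for adenine nucleotides and phosphate, 3 fell (42.9%, against 8.73% of all genes) and none rose (11% of all genes). This group and the role groups below hold few members, so their counts are too small to read against these shares. Slc25a4 is the ADP/ATP carrier of heart and muscle (ANT1), which sends ATP out of mitochondria. It had 1897, 1932, 1440 and 921 CPM in the 4 tumor libraries, against 3127, 2734, 2803 and 3921 CPM in the 4 control libraries. Every tumor value was below every control value, and tumor 4 was the lowest of all. It fell 2.03-fold (log2 fold change -1.02 ± 0.26, the error being the SE; adjusted p = 0.0234, edgeR). Leaving out control 1, control 4 or tumor 3 ended the call, at adjusted p = 0.0671, 0.0504 and 0.076.

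Per kilobase of transcript, Slc25a4 was the most abundant member in both groups, with 804 ± 246 CPM per kilobase in tumor and 1635 ± 283 CPM per kilobase in control muscle (SD, n = 4 each). Slc25a3 came next, with 188 ± 17.0 in tumor and 281 ± 70.8 in control muscle on the same scale. Slc25a11 (53.4 ± 4.88 in tumor, 92.6 ± 22.7 in control) and Slc25a12 (38.2 ± 8.85 in tumor, 61.2 ± 9.82 in control) followed in both groups. In control muscle the means of these 2 genes lay closer together than the sum of their SDs. Both were measured in the same libraries, so these SDs do not decide their order. The next in control muscle was Slc25a20 (30.1 ± 14.4 CPM per kilobase), and in tumor muscle Slc25a28 (31.2 ± 5.15), with Slc25a20 at 27.5 ± 13.2.

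Slc25a4 made up 44.8% to 61.4% of the family's counts in tumor libraries and 62.9% to 66.5% in control libraries, so the groups did not overlap in this share. The other 38 members together had 1192, 1528, 1137 and 1135 CPM in tumor 1 to 4, against 1709, 1611, 1411 and 2034 CPM in control 1 to 4. Tumor 2 lay above control 3 in this sum.

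Slc25a3, the phosphate carrier, had 294, 343, 285 and 287 CPM in tumor libraries, against 464, 375, 364 and 611 CPM in control libraries. The groups did not overlap, with tumor 2 nearest to the controls. It fell 1.50-fold (log2 fold change -0.59 ± 0.18, adjusted p = 0.049, edgeR) and lost its call in 10 of the 17 alternative fits. The ATP-Mg/phosphate carriers bind calcium on the cytosolic side and adjust the nucleotide content of the matrix. Slc25a23, one of these, had 10.6, 17.5, 9.09 and 12.5 CPM in tumor libraries, against 21.9, 21.4, 18.8 and 26.9 CPM in control libraries. It fell 1.79-fold (log2 fold change -0.84 ± 0.21, adjusted p = 0.0218, edgeR), with no overlap. Leaving out control 1, control 2 or tumor 3 ended this call, at adjusted p = 0.0622, 0.0526 and 0.0643.

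Other carriers of this role did not pass. Slc25a5 (ANT2), the ADP/ATP carrier of most other tissues, had 12.2 to 20.5 CPM in tumor and 16.0 to 25.5 CPM in control libraries (log2 fold change -0.52 ± 0.20, adjusted p = 0.0934, edgeR). Without tumor 2 it passed (log2 fold change -0.74, adjusted p = 0.021). Slc25a25, another ATP-Mg/phosphate carrier, ranged from 19.2 to 48.1 CPM in tumor and from 12.2 to 91.9 CPM in control libraries, so its spread among controls exceeded the difference between groups. Slc25a24 had 1.62 to 9.39 CPM in tumor and 1.79 to 4.06 CPM in control libraries (adjusted p = 0.25, edgeR). Slc25a17, the peroxisomal member of the family, had 3.10 to 5.65 CPM in tumor and 4.43 to 5.19 CPM in control libraries (adjusted p = 0.902, edgeR).

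**Figure D2:**
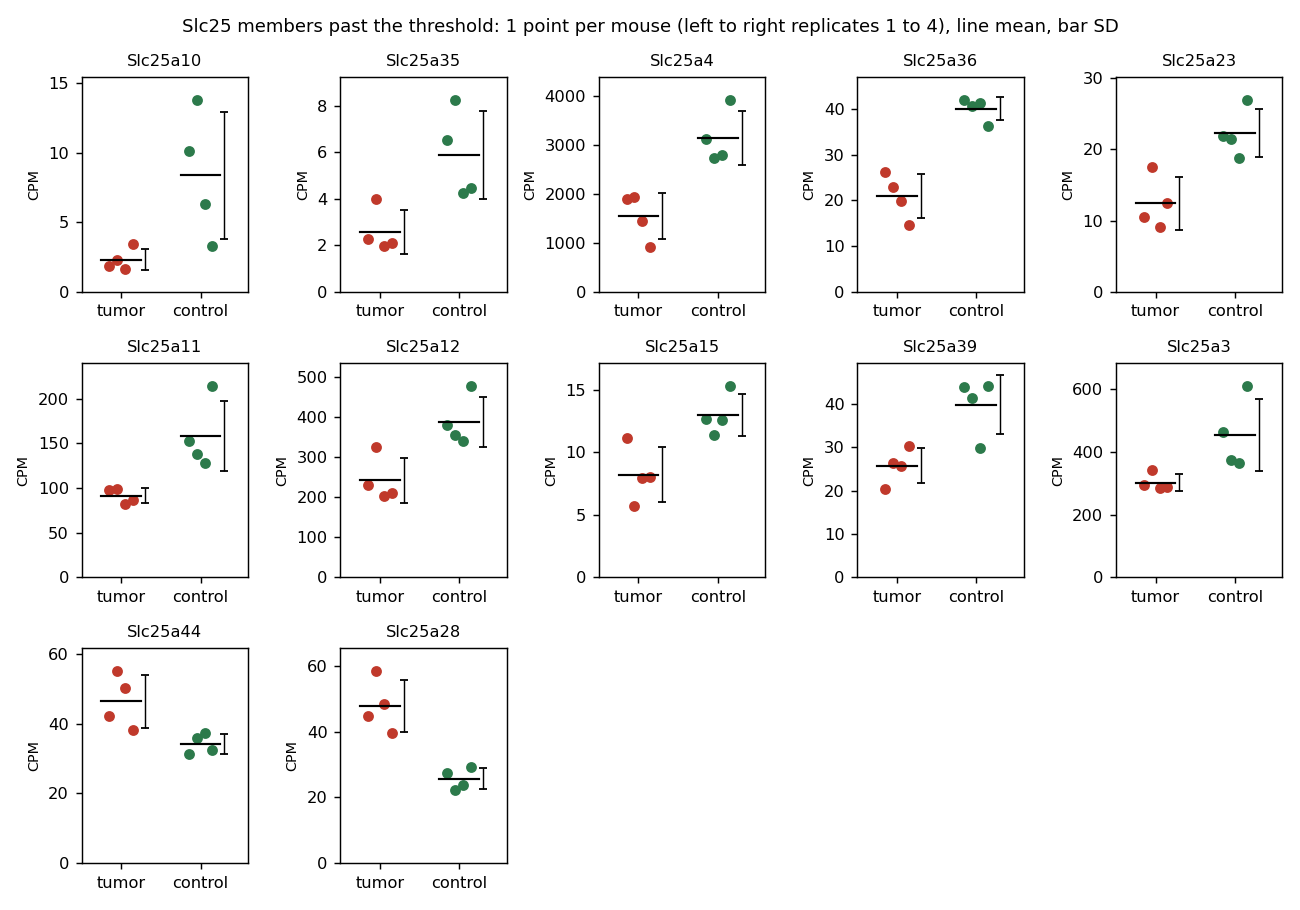
CPM (vertical axis, from 0) of 12 members past the threshold, 1 point per mouse, with tumor mice to the left of control mice; the line is the mean and the bar the SD of 4 mice. In 10 of the 12 the groups do not overlap; Slc25a10 and Slc25a39 are the others.

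Of 5 carriers of organic acids and fuels, 2 fell (40%, against 8.73% of all genes) and none rose (11% of all genes). Their median log2 fold change was -0.90, the value of Slc25a47, which did not pass, against 0.00 over all genes. Slc25a11, which exchanges oxoglutarate for malate as an arm of the malate-aspartate shuttle, had 98.0, 98.5, 81.6 and 87.0 CPM in tumor libraries, against 153, 138, 128 and 215 CPM in control libraries. The groups were well apart, since the highest tumor value was 98.5 and the lowest control value 128. It fell 1.74-fold (log2 fold change -0.80 ± 0.17, adjusted p = 0.0134, edgeR) and passed in 16 of 17 alternative fits. The exception was the fit without tumor 3 (adjusted p = 0.0527).

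Slc25a12 (aralar), the calcium-regulated aspartate/glutamate carrier and the other mitochondrial arm of that shuttle, had 232, 325, 204 and 210 CPM in tumor libraries. Control libraries had 380, 354, 341 and 479 CPM. Tumor 2 came closest to the controls without reaching them. It fell 1.60-fold (log2 fold change -0.68 ± 0.19, adjusted p = 0.032, edgeR). Its call was lost without control 1, 2 or 4 or tumor 1, 3 or 4, with an adjusted p from 0.0601 to 0.102. The liver form Slc25a13 (citrin) was near the detection limit, at 0.132 to 0.353 CPM in tumor and 0.0579 to 1.78 CPM in control libraries.

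Slc25a10, the dicarboxylate carrier, had 1.88, 2.30, 1.67 and 3.42 CPM in tumor libraries, against 10.2, 13.8, 6.34 and 3.26 CPM in control libraries. Control 4 lay just below tumor 4, and the other controls were above every tumor library. It fell 3.61-fold (log2 fold change -1.85 ± 0.42, adjusted p = 0.0165, edgeR), and leaving out control 1 or tumor 3 ended the call, at adjusted p = 0.055 and 0.0593. Slc25a1, the citrate carrier, exports citrate for fat synthesis. Its values were 2.53, 17.2, 3.28 and 5.97 CPM in tumor libraries and 25.4, 52.8, 13.7 and 1.45 CPM in control libraries. Both the lowest and the highest of the 8 values were controls, and the difference missed the threshold (log2 fold change -1.69 ± 0.89, adjusted p = 0.208, edgeR). It passed without the pair of tumor 2 and control 4 (log2 fold change -2.97, adjusted p = 0.00828). Those libraries held its highest tumor value (17.2 CPM) and its lowest control value (1.45 CPM). Leaving them out parted the groups, so this pass is no separate evidence of a fall.

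The citrate and dicarboxylate carriers are abundant in fat cells, and adipocyte markers varied between libraries. The summed level of 6 markers (Adipoq, Plin1, Cidec, Lep, Cfd, Fabp4) was 175, 1147, 132 and 107 CPM in tumor 1 to 4, against 822, 1340, 433 and 178 CPM in control 1 to 4. None of the 6 markers passed the test, and none was at 0 in all libraries. Among controls, both Slc25a1 and Slc25a10 had the order of the marker sum, highest in library 2 and lowest in library 4. In tumor 2, where the sum was within the range of the controls, Slc25a1 was at 17.2 CPM and Slc25a10 at 2.30 CPM, which was below all 4 controls. In control 4, where the sum was 178 CPM, Slc25a10 was at 3.26 CPM, within its tumor range of 1.67 to 3.42 CPM. With tumor 2 and control 4 left out, all tumor marker sums were below all control sums. The part of adipocytes in the values of Slc25a1 and Slc25a10 was not tested.

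**Figure D3:**
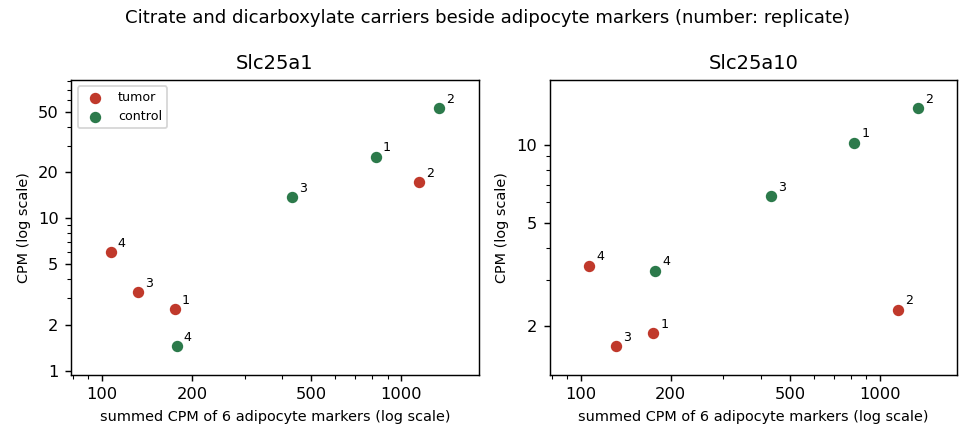
CPM of Slc25a1 and Slc25a10 (vertical axes, log scale) against the summed CPM of 6 adipocyte markers (horizontal axes, log scale), 1 numbered point per library. Tumor 2 has a marker sum of 1147 CPM, with Slc25a1 at 17.2 CPM and Slc25a10 at 2.30 CPM. Control 4 has a marker sum of 178 CPM, with Slc25a1 at 1.45 CPM and Slc25a10 at 3.26 CPM.

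The carnitine/acylcarnitine carrier Slc25a20, which brings fatty acids in for oxidation, had 36.2, 84.2, 41.1 and 34.8 CPM in tumor libraries, against 50.4, 43.5, 30.5 and 90.0 CPM in control libraries. A single library in each group was high, and the rest overlapped. Its log2 fold change was -0.13 ± 0.37 (adjusted p = 0.839, edgeR), and it was 0.27 with the Myh ratio as a covariate. Slc25a47, known as a liver carrier, had 1.15 to 3.08 CPM in tumor and 2.90 to 4.56 CPM in control libraries (log2 fold change -0.90 ± 0.31, adjusted p = 0.0699, edgeR). It passed without tumor 2, without the pair of tumor 2 and control 4, by DESeq2 and with the strict count filter.

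Of 8 amino acid carriers, 2 were lower (Slc25a12 and Slc25a15; 25%, against 8.73% of all genes), 1 was higher (Slc25a44; 12.5%, against 11% of all genes) and 5 did not pass. Slc25a15, the ornithine carrier of the urea cycle, had 11.1, 5.71, 7.97 and 8.04 CPM in tumor libraries, against 12.6, 11.4, 12.6 and 15.3 CPM in control libraries. The groups were separated by a narrow gap, from 11.1 CPM in tumor 1 to 11.4 CPM in control 2. It fell 1.58-fold (log2 fold change -0.66 ± 0.20, adjusted p = 0.0436, edgeR), and of the 8 fits without 1 library only that without tumor 1 kept the call.

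Slc25a44 carries branched-chain amino acids into mitochondria, a role worked out in brown fat. It had 42.4, 55.1, 50.2 and 38.3 CPM in tumor libraries, against 31.3, 35.8, 37.4 and 32.5 CPM in control libraries. The lowest tumor value, in library 4, was just above the highest control value. It rose 1.36-fold (log2 fold change 0.44 ± 0.14, adjusted p = 0.0482, edgeR). The value lay at the threshold: 14 of the 17 alternative fits gave an adjusted p from 0.0504 to 0.141, and the other 3 kept the call.

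The other amino acid carriers did not pass. Slc25a38, the glycine carrier that feeds haem synthesis, had 10.7 to 18.0 CPM in tumor and 6.25 to 12.3 CPM in control libraries (log2 fold change 0.49 ± 0.23, adjusted p = 0.166, edgeR). Slc25a29, a carrier of basic amino acids, had 1.99 to 5.45 CPM in tumor and 4.43 to 7.28 CPM in control libraries (log2 fold change -0.74 ± 0.34, adjusted p = 0.149, edgeR), and passed without tumor 2. The glutamate carrier Slc25a22 had 8.30, 28.6, 7.04 and 5.74 CPM in tumor libraries, against 14.2, 12.1, 5.50 and 21.6 CPM in control libraries. The highest value was in tumor 2 and the lowest in control 3. Slc25a45 was at 0.26 to 1.71 CPM in tumor and 0.662 to 1.81 CPM in control libraries.

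Slc25a36 and Slc25a33 are the carriers of pyrimidine nucleotides, which supply the copying and reading of mitochondrial DNA. Slc25a36 had 26.2, 22.9, 19.9 and 14.7 CPM in tumor libraries, against 41.9, 40.5, 41.3 and 36.3 CPM in control libraries. Tumor 4 was lowest. The groups did not overlap, with the highest tumor value at 26.2 CPM and the lowest control value at 36.3 CPM. It fell 1.91-fold (log2 fold change -0.94 ± 0.17, adjusted p = 0.007, edgeR). Slc25a33 had 7.31 to 11.8 CPM in tumor and 7.24 to 15.6 CPM in control libraries (log2 fold change -0.14 ± 0.24, adjusted p = 0.712, edgeR).

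Slc25a39 imports glutathione, with Slc25a40 as its less abundant relative. It had 20.5, 26.5, 25.7 and 30.2 CPM in tumor libraries, against 43.9, 41.4, 29.8 and 44.2 CPM in control libraries. Control 3 lay just below tumor 4, and the other controls were above every tumor value. It fell 1.55-fold (log2 fold change -0.63 ± 0.16, adjusted p = 0.0266, edgeR), and lost its call without control 1, 2 or 4 or tumor 3 (adjusted p from 0.0577 to 0.0854). Slc25a40 had 1.38 to 2.60 CPM in tumor and 1.67 to 3.62 CPM in control libraries (adjusted p = 0.404, edgeR).

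The mitoferrins carry iron to the matrix for haem and iron-sulphur clusters, mitoferrin-1 (Slc25a37) chiefly in red cell precursors and mitoferrin-2 (Slc25a28) in other tissues. Slc25a28 had 44.9, 58.4, 48.5 and 39.7 CPM in tumor libraries, against 27.4, 22.4, 23.8 and 29.2 CPM in control libraries. Every tumor value exceeded every control value, with tumor 2 the highest. It rose 1.86-fold (log2 fold change 0.90 ± 0.15, adjusted p = 0.00508, edgeR), and the log2 fold change lay between 0.76 and 0.99 over the alternatives. Slc25a37 had 17.6, 13.8, 18.9 and 26.9 CPM in tumor libraries, against 23.2, 23.3, 26.3 and 19.7 CPM in control libraries. Tumor 4 was the highest of the 8 values and tumor 2 the lowest (log2 fold change -0.26 ± 0.19, adjusted p = 0.37, edgeR). The 6 erythroid markers, for comparison, summed to 46.5 to 277 CPM in tumor and 116 to 239 CPM in control libraries, and none of the 5 tested passed.

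Further cofactor carriers did not pass. Slc25a51, which carries NAD, had 70.9 to 81.6 CPM in tumor and 61.6 to 71.0 CPM in control libraries (log2 fold change 0.17 ± 0.10, adjusted p = 0.281, edgeR). Slc25a42, which carries coenzyme A, had 29.8 to 34.4 CPM in tumor and 27.8 to 43.5 CPM in control libraries (adjusted p = 0.5, edgeR). The S-adenosylmethionine carrier Slc25a26 had 12.9 to 17.2 CPM in tumor and 16.8 to 22.2 CPM in control libraries (adjusted p = 0.202, edgeR). Slc25a16 had 21.8 to 26.6 CPM in tumor and 24.6 to 33.6 CPM in control libraries (adjusted p = 0.2, edgeR). Slc25a32, a carrier linked to folate and flavin cofactors, had 17.7 to 27.7 CPM in tumor and 16.7 to 21.9 CPM in control libraries (adjusted p = 0.64, edgeR).

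None of the 3 members that resemble uncoupling proteins passed (edgeR), though 2 had an unadjusted p under 0.05, DESeq2 called Slc25a27, and they differed in sign. Slc25a27 (UCP4) had 9.22 to 12.5 CPM in tumor and 5.04 to 10.1 CPM in control libraries (log2 fold change 0.65 ± 0.23, adjusted p = 0.0716, edgeR), and passed without control 2, with the replicate block and by DESeq2. Slc25a30 had 4.84, 6.59, 2.02 and 1.84 CPM in tumor libraries, against 7.48, 5.26, 8.28 and 9.24 CPM in control libraries (log2 fold change -0.99 ± 0.40, adjusted p = 0.11, edgeR). It passed without tumor 2 (log2 fold change -1.42), and without the pair of tumor 2 and control 4. Slc25a14 (UCP5) lay between 0.823 and 2.06 CPM in tumor and between 0.348 and 1.22 CPM in control libraries.

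Among the 4 members of orphan or other function, 1 fell (25%, against 8.73% of all genes), a count too small to read against that share. Slc25a35, whose substrate is not established, had 2.27, 3.99, 1.96 and 2.10 CPM in tumor libraries, against 6.54, 8.24, 4.25 and 4.46 CPM in control libraries. Tumor 2 was the highest of its group and still below every control. It fell 2.28-fold (log2 fold change -1.19 ± 0.31, adjusted p = 0.0265, edgeR), and lost its call without control 1 or 2 or tumor 1, 3 or 4 (adjusted p from 0.0535 to 0.0827). Slc25a46, an outer membrane protein of mitochondrial dynamics, had 40.3 to 56.6 CPM in tumor and 42.1 to 47.4 CPM in control libraries (log2 fold change 0.05 ± 0.13, adjusted p = 0.803, edgeR). Slc25a53 had under 2 CPM in each library (adjusted p = 0.132, edgeR).

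Slc25a34 varied more between mice than between groups. It had 4.54, 36.2, 5.08 and 3.10 CPM in tumor libraries, against 12.2, 7.44, 1.85 and 42.7 CPM in control libraries. Tumor 2 was 7.13 times the next tumor library and control 4 was 3.50 times the next control. These are the libraries with the lowest Myh4 ratio of their groups. Slc25a20 was likewise highest in tumor 2 (2.05 times the next tumor library) and control 4 (1.79 times the next control), and Slc25a22 in tumor 2 (3.45 times) and control 4 (1.53 times). In all, 17 of 39 members (43.6%) had their highest tumor value in tumor 2 and their highest control value in control 4. The same held for 14.9% of all genes tested and for 67.1% of 82 nuclear respiratory chain subunits. Some of the 17 members led by little. Tumor 2 was 1.02 times the next tumor library for Slc25a4 and Slc25a40, and 1.05 times for Slc25a26.

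**Figure D4:**
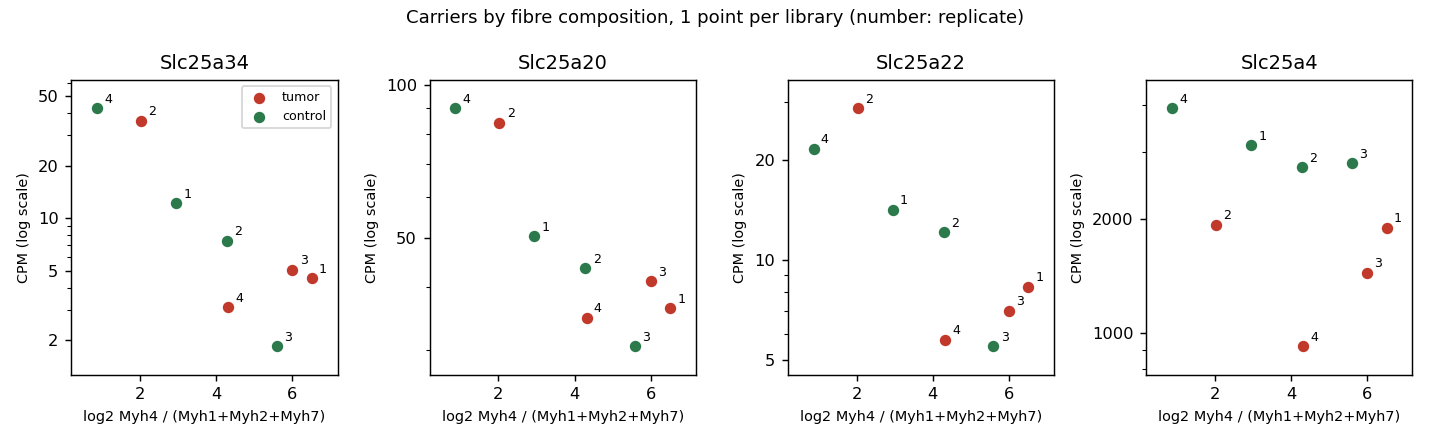
CPM (vertical axes, log scale) of Slc25a34, Slc25a20, Slc25a22 and Slc25a4 against the log2 ratio of Myh4 to Myh1, Myh2 and Myh7 summed (horizontal axes), 1 numbered point per library. Tumor 2 and control 4 stand at the left and carry the highest values of Slc25a34, Slc25a20 and Slc25a22; for Slc25a4 all tumor points lie below all control points.

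With the Myh ratio as a covariate, 10 members were lower and 1 was higher (all genes 9.82% lower and 11.7% higher), and Slc25a3 and Slc25a44 lost their calls (adjusted p = 0.0622 and adjusted p = 0.0571, edgeR). Without both tumor 2 and control 4, 13 were lower and 2 were higher (all genes 10.1% lower and 10.5% higher). Slc25a1, Slc25a5, Slc25a30 and Slc25a47 then passed as lower and Slc25a24 as higher, while Slc25a15, Slc25a39 and Slc25a44 did not pass. For Slc25a1 and Slc25a47 the pair held the highest tumor and the lowest control value. For Slc25a24 it held the lowest tumor and the highest control value.

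Relatives with a shared substrate were set against each other as a log2 ratio within each library, which does not depend on scaling. None of 6 pairs passed a two-sided exact permutation test, whose smallest p with 4 against 4 libraries is 0.0286. Adjusted over the 6 pairs, a lone pair at that p could not pass, so the lack of calls says little. The ratio of Slc25a28 to Slc25a37 was 1.35, 2.08, 1.36 and 0.562 in tumor libraries, against 0.242, -0.061, -0.143 and 0.566 in control libraries. Tumor 4 and control 4 met, and the other values were apart (difference 1.19, exact p = 0.0571, adjusted over the 6 pairs 0.171). Slc25a33 to Slc25a36 averaged -1.09 ± 0.58 in tumor and -1.94 ± 0.55 in control libraries (SD, n = 4 each, exact permutation p = 0.0571, adjusted 0.171). Slc25a4 to Slc25a5 averaged 6.66 ± 0.47 in tumor and 7.20 ± 0.28 in control libraries (SD, n = 4 each, exact permutation p = 0.114, adjusted 0.229). For the pairs Slc25a12 and Slc25a13, Slc25a23 and Slc25a25, and Slc25a39 and Slc25a40 the differences were 0.14, -0.94 and -0.23 on the log2 scale, with exact permutation p of 0.886, 0.286 and 0.486.

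Genes that work with the carriers were counted in 10 lists, to be read against 8.73% lower and 11% higher over all genes. Of 10 genes for ATP export and phosphate use, 7 fell and none rose, and the median log2 fold change was -0.82. Ckmt2, the mitochondrial creatine kinase that takes ATP from the ADP/ATP carrier, fell 6.78-fold, to 147 ± 133 CPM in tumor against 998 ± 672 CPM in control muscle (SD, n = 4 each). Ak1, the cytosolic adenylate kinase, fell 2.27-fold, and Atpif1, the ATP synthase inhibitor, 1.79-fold. This count was 2 without control 1 or tumor 3, 3 without control 2, control 4 or tumor 4, and 4 without tumor 1. Of 82 nuclear respiratory chain subunits, 60 fell, with a median of -0.77, and the count was 39 without control 1 and 34 without tumor 3. This list takes in ATP synthase subunits, and Atp5a1, Atp5b and Atp5c1 stand in the ATP export list too.

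Of 11 malate-aspartate and citrate shuttle enzymes, 4 fell and none rose (median -0.83). The malate dehydrogenase genes Mdh1 (cytosolic) and Mdh2 (mitochondrial) fell 2.64-fold and 2.03-fold, and citrate synthase (Cs) fell 1.77-fold. The shuttle count was 2 without control 1 or 2 and 0 without tumor 3. Of 9 carnitine shuttle genes 0 passed by edgeR, DESeq2 or limma-voom, and 0 had an unadjusted p under 0.05 (edgeR). Cpt1a had the smallest p (log2 fold change 0.43 ± 0.21, adjusted p = 0.176), and 3 genes of the list were lower without tumor 2.

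Among 14 iron-sulphur cluster and haem genes, 4 fell and none rose, with a median of -0.06. The cluster assembly gene Isca1 fell 1.56-fold, the ferredoxin gene Fdx1 1.82-fold and Alas1, the first enzyme of haem synthesis, 1.88-fold. The count was 2 without control 1 or tumor 3. Of 13 genes of branched-chain amino acid, ornithine and glycine use, 2 fell and 1 rose. Glutamine synthetase (Glul) rose 4.13-fold, and Bckdk, the kinase that inhibits branched-chain ketoacid dehydrogenase, fell 1.54-fold. Alas1 stands in this list too. The lower count was 0 without control 1 or tumor 3, and 1 without control 2, control 4 or tumor 4. Of 21 cofactor genes 1 fell, the S-adenosylmethionine synthetase gene Mat2a (1.60-fold), which lost its call without control 1, 2 or 3 or tumor 3. That count was 4 without tumor 2 and 3 without tumor 4.

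Of 13 genes of the import path of carriers, 1 fell and none rose, and the median log2 fold change was 0.06. The one that fell was Timm22, the channel of the TIM22 complex, at 12.9 ± 1.16 CPM in tumor against 18.9 ± 2.22 CPM in control muscle (SD, n = 4 each, log2 fold change -0.55 ± 0.13, adjusted p = 0.0177, edgeR). It lost the call without control 1 or tumor 3. Of 24 other mitochondrial transporters and channels, 3 fell and none rose (median -0.18): the pyruvate carrier subunit Mpc2 (1.91-fold) and the ABC transporters Abcb8 (1.59-fold) and Abcb10 (1.25-fold). That count was 7 without tumor 2. Proteins of the SLC25 fold with other symbols (Ucp2, Ucp3, Mtch1, Mtch2) did not pass by edgeR, where 3 had an unadjusted p under 0.05, while DESeq2 called 1 lower and 1 higher. Mtch1, an outer membrane insertase relative, had 33.3 ± 1.99 CPM in tumor against 43.2 ± 5.78 CPM in control muscle (adjusted p = 0.0551, edgeR).

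**Figure D5:**
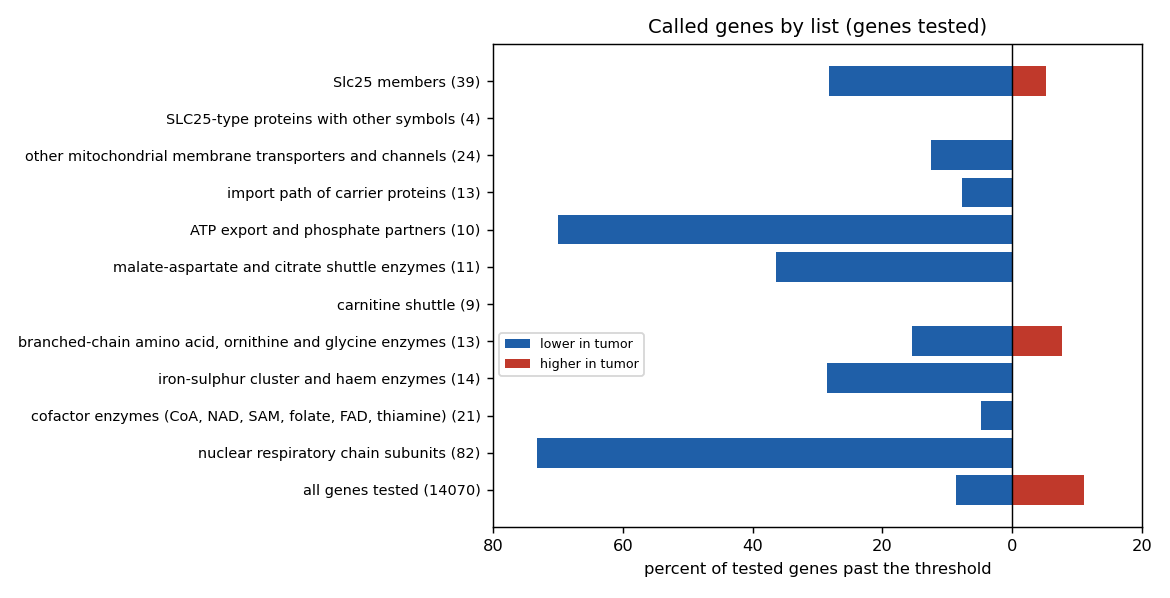
Percent of tested genes lower (left of 0) and higher (right of 0) in tumor-bearing mice for the 39 Slc25 members, 10 related lists and all 14070 genes tested, with the number tested in brackets. Respiratory chain subunits (60 of 82) and ATP export partners (7 of 10) have larger lower shares than the Slc25 members (11 of 39). Atp5a1, Atp5b and Atp5c1 stand in both of those lists, and the difference between lists was not tested.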

How the data were processed

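RNA of 8 quadriceps muscles was sequenced as 1 library per mouse (4 tumor, 4 control), with groups and columns taken from the sample labels. The authors deposited 1 table of estimated counts per gene symbol, of which 9% of values were not whole. Salmon 1.10.1, STAR 2.7.9a, Trim Galore 0.6.7, cutadapt 3.4 and R 4.2.2 are named, per the submitters' processing notes, beside the build GRCm39. The sources used here do not give the annotation or the strand setting. Estimated counts share ambiguous reads among genes, which touches Slc25a3, Slc25a5, Slc25a36 and Slc25a37, whose values departed from whole numbers by over 0.01. Other members departed by less.

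Counts were rounded. Genes were kept by filterByExpr (minimum count 10; 14070 genes with 99.92% of counts), scaled by TMM and tested with the edgeR quasi-likelihood test (edgeR 4.0.16, limma 3.58.1, R 4.3.3), two-sided, with Benjamini-Hochberg adjustment over all genes and a threshold of 0.05. SE is the log2 fold change divided by the root of F. CPM are TMM-scaled, and means and SDs are over 4 libraries. Levels per length used principal transcripts of the GENCODE annotation in the reference, matched by symbol for all 39 members. Ratios had 0.5 counts added. Library totals of 28436254 to 36139478 set the counting precision; the lowest members had 2 to 10 counts in a library. Steps were tested on simulated data. There the edgeR test called 38 of 99 genes changed 2-fold and 73 of 93 genes changed 4-fold. Of its 119 calls, 8 were false. Far more genes were called in the data (1229 lower, 1552 higher), which moves the adjusted cut-off. These shares are therefore not the power in the data. A member that did not pass is still not shown to be unchanged. Within each group, counts varied beyond sampling noise between all libraries, and all 8 were kept. Members and lists were chosen with earlier results of these data known. Named genes were all called members, the most abundant of each role, the paralog pairs, and up to 3 genes with the smallest p of each list; other members are given by range. The result of 1 member is not reported here, though it enters the counts. Slc25a1, Slc25a20, Slc25a22, Slc25a30 and Slc25a34 are given by library and were chosen after their values were seen.

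Alternatives covered scaling, count filters, DESeq2 1.42.0, limma-voom, the replicate number as a block and each library left out. They also covered the pair with the lowest Myh4 ratio of each group left out, and the Myh ratio as a covariate.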

Additional observations from a re-analysis of the deposited data

Results flagged for a closer look

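A sample that stood apart from the other 3 of its group was looked for in 90 groups of 4 values, and chance flags about 1 group in 20. Tumor 2 stood above the other tumor libraries, by a gap that was large against their range, in Slc25a20 (84.2 CPM), Slc25a22 (28.6 CPM), Slc25a3 (343 CPM, 1.17 times the next), Slc25a32 (27.7 CPM), Slc25a34 (36.2 CPM) and Slc25a35 (3.99 CPM). Its Myh4 ratio was the lowest of the tumor group. Its adipocyte marker sum was the highest of that group (1147 CPM). Its sums for macrophages (19.4 CPM) and fibro-adipogenic progenitors (159 CPM) were the lowest. The part of each was not tested. Tumor 4 was below the other tumor libraries in Slc25a27 (9.22 CPM). The log2 ratio of Slc25a39 to Slc25a40 stood above the other controls in control 1 (4.70).

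Slc25a43, which was under the minimum count for a member, had 11 counts in the tumor group (5 in library 3 and 6 in library 4) and 0 in the control group. It was not tested.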

How the results depend on the processing

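All 13 called members kept their sign in each of the 17 alternative fits, and Slc25a28 and Slc25a36 were among the 3 that kept their call in all. The count of lower members ran from 2 to 14 over fits without 1 library, and it was 8 in the fit with a replicate block. The count of higher members was 1 to 2 over fits without 1 library, and 1 with DESeq2 size factors, upper-quartile scaling, no count filter, limma-voom or the Myh covariate. DESeq2 gave 12 lower and 3 higher (all genes 12.3% lower and 13.6% higher). The median log2 fold change ran from -0.55 to -0.25 over fits without 1 library. Upper-quartile scaling moved the median of all genes by -0.076 and the split over all genes from 1552 higher and 1229 lower to 1169 higher and 1547 lower.

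Members that did not pass changed sign in some fits. Over fits without 1 library, log2 fold changes ran from -0.189 to 0.097 for Slc25a17, -0.555 to 0.244 for Slc25a20, -0.962 to 0.231 for Slc25a22, -0.607 to 0.276 for Slc25a25, -0.079 to 0.197 for Slc25a32, -0.294 to 0.089 for Slc25a33, -1.957 to 0.773 for Slc25a34, -0.872 to 0.01 for Slc25a45 and -0.097 to 0.102 for Slc25a46. Upper-quartile scaling gave -0.024 for Slc25a46, and limma-voom gave 0.076 and the replicate block 0.067 for Slc25a25. Without the pair (tumor 2 and control 4), Slc25a32, Slc25a45 and Slc25a46 were -0.053, 0.017 and -0.037. With the Myh covariate, Slc25a20, Slc25a22, Slc25a33 and Slc25a34 were 0.272, 0.319, 0.025 and 0.725. The cause was not tested.

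The paralog ratio Slc25a12/Slc25a13 (log2 difference, tumor minus control) ran from -0.48 to 0.901 over single libraries left out and was -0.656 without the pair. The paralog ratio Slc25a39/Slc25a40 ran from -0.486 to 0.027. With 3 against 4 libraries the smallest exact permutation p is 0.0571, so these values carry no test.

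Deviations of same-numbered tumor and control libraries correlated by 0.03, 0.13, 0.20 and 0.02, so the replicate numbers were not taken to pair the mice, and 4 of 8 libraries correlated best with their own number. With the replicate block Slc25a3, Slc25a4, Slc25a12 and Slc25a44 lost their calls and Slc25a27 passed. Low counts limit Slc25a13, Slc25a14, Slc25a45 and Slc25a53.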
